A study of Mus musculus with 8 samples.

Results

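Immediate early genes are transcribed within minutes of a stimulus, without the need for new protein synthesis, and their RNA is usually short-lived. In skeletal muscle they are known to respond to contraction, stretch, nerve activity and stress, through kinase and calcium signals that act on the factors SRF and CREB. The 10 genes described here were chosen by symbol from the deposited count table: Fos, Jun, Junb, Jund, Egr1, Atf3, Nr4a1, Nr4a3, Ier2 and Btg2. All 10 were among the 12551 genes of the table, all 10 were tested, and none was lost to a filter on low counts.

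The RNA came from tibialis anterior (TA) muscles, a fast-twitch muscle of the lower hind limb, of male mice at 7 weeks of age. There were 4 WT mice (Klotho wt/wt) and 4 KL-/- mice (Klotho null/null), bred as littermates on a mixed background. Klotho is a membrane protein made mainly in the kidney that acts as a co-receptor for the hormone FGF23. The null allele is systemic, so Klotho is lost in every organ and not only in muscle, and Kl itself is not a row of the table, so its transcript gave no check of the genotypes. Libraries held 20860262 to 29273758 counts on genes, and the lowest count of any of the 10 genes in any library was 40. The summed level of 12 skeletal muscle fibre markers, such as Acta1 and Ckm, was 171220 to 191340 CPM (counts scaled to library size) in WT and 204930 to 243590 CPM in KL-/- muscles, and all 12 were detected in every library. All CPM values were scaled with TMM factors, and gene positions below are the mm10 ones of the count table. The labels give 1 batch date to 7 libraries and another to KL-/- replicate 3 alone, so that batch and that mouse cannot be told apart.

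The 10 genes belong to a few families. Fos, Jun, Junb, Jund and Atf3 encode leucine zipper proteins that pair with one another, and the Fos and Jun proteins form the transcription factor AP-1. Egr1 is a zinc finger transcription factor, and Nr4a1 and Nr4a3 are orphan nuclear receptors. Btg2 is an antiproliferative protein that promotes shortening of mRNA tails, and Ier2 is a small nuclear protein. The genes are compact: their median span on mm10 was 3560 bases, beside 22556 bases over all 12551 genes, and Jun, Junb, Jund and Ier2 were each counted over 1 exon block. Nr4a3, at 41142 bases, was the longest. Jun on chromosome 4 is overlapped by the antisense gene Junos, and Jund on chromosome 8 by the antisense gene Gm11175. Whether the counting used strand is not given in the sources used here, and reads of these 2 members cannot be told apart from reads of their antisense partners. The other 8 members overlapped no other annotated gene.

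CREB and related proteins bind the cyclic AMP response element, whose full palindrome is TGACGTCA and whose core is TGACG. The 250 bases before the RefSeq transcription start (GRCm38.p6, the assembly of mm10) were read for the 8 members in the promoter table, all but Egr1 and Ier2. The sequences of 6 members are shown, all those that carry the core. They are written 5′ to 3′ on the strand of the gene, and capitals mark each match of TGACG or of its reverse complement CGTCA. Fos lies on the plus strand at chr12:85473640-85473889, Junb on the minus strand at chr8:84978749-84978998, Nr4a1 on the plus strand at chr15:101266596-101266845, Nr4a3 on the plus strand at chr4:48045055-48045304, Btg2 on the minus strand at chr1:134079156-134079405 and Atf3 on the minus strand at chr1:191183334-191183583.
Fos: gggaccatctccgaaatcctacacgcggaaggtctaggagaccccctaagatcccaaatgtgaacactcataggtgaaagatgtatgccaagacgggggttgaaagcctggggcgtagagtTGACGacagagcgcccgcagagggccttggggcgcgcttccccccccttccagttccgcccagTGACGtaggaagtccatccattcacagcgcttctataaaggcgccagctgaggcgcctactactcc
Junb: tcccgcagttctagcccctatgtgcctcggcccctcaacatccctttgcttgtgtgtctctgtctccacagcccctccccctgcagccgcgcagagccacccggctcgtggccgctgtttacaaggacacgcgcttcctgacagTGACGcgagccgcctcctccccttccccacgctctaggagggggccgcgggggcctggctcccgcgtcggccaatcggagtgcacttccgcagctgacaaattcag
Nr4a1: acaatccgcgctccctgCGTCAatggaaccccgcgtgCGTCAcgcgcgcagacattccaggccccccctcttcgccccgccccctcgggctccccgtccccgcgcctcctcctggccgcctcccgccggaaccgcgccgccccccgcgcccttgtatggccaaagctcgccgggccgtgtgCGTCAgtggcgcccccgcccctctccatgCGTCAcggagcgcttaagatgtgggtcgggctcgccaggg
Nr4a3: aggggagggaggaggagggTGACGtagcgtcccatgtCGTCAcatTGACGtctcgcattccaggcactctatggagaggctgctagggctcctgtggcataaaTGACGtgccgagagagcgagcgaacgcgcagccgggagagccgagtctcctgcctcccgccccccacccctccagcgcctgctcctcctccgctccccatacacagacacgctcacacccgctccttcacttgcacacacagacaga
Btg2: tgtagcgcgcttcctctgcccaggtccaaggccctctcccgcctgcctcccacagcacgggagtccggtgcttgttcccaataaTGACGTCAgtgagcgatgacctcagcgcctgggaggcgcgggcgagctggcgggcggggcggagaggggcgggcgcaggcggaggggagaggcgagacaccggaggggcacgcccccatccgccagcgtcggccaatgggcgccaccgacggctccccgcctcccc
Atf3: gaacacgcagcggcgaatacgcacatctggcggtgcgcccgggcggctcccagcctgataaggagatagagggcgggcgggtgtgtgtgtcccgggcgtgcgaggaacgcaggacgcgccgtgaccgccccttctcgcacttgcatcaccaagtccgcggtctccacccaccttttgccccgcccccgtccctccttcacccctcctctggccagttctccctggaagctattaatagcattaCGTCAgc

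The core was found in 6 of the 8 promoters, beside 17.77% of all 32851 windows of the same length in the table. Nr4a1 and Nr4a3 each held 4 copies, a number reached by 0.137% of all windows. Fos held 2 copies, starting 129 and 66 bases before the transcription start, and Atf3 held 1. In Btg2 the 2 matches overlap on opposite strands and form 1 full palindrome, which 1.55% of all windows contained. Junb held 1 core, and Jun and Jund held none. On either strand the AP-1 element TGACTCA (4.46% of windows), the EGR element GCGTGGGCG (0.54%) and the CArG box bound by SRF (1.47%) were absent from all 8 windows. These are matches of letters in a short window, and sites outside it were not searched. The shares over all windows were not matched to the base composition of the members' windows.

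Levels of different genes were compared as CPM per kilobase of counted length. In WT muscles Nr4a1 was the most abundant member at 76.3 ± 22.1 CPM per kilobase (mean ± SD, n = 4 here and below), above 94.5% of all genes by its mean level. Jun followed at 30.7 ± 3.63 and Jund at 14.6 ± 1.47, and the WT ranges of these 3 genes did not overlap. Junb at 5.95 ± 1.90, Btg2 at 5.52 ± 0.748, Ier2 at 4.74 ± 0.518, Egr1 at 3.63 ± 1.69 and Fos at 3.36 ± 2.15 CPM per kilobase formed a middle group in which each gene overlapped the next. Atf3 at 1.25 ± 0.364 lay below Fos without overlap, and overlapped Nr4a3, the lowest at 0.638 ± 0.304. In KL-/- muscles the first 3 places were the same, at 117 ± 44.9 CPM per kilobase for Nr4a1, 36.2 ± 8.99 for Jun and 17.8 ± 1.94 for Jund. Btg2 came next with a mean of 17.8 ± 9.07, while its values in replicates 1 to 4 were 9.56, 10.6, 23.1 and 27.8. All of these lay outside the KL-/- range of Jund, 15.4 to 20.1. Atf3 was last at 3.25 ± 1.37.

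**Figure D1:**
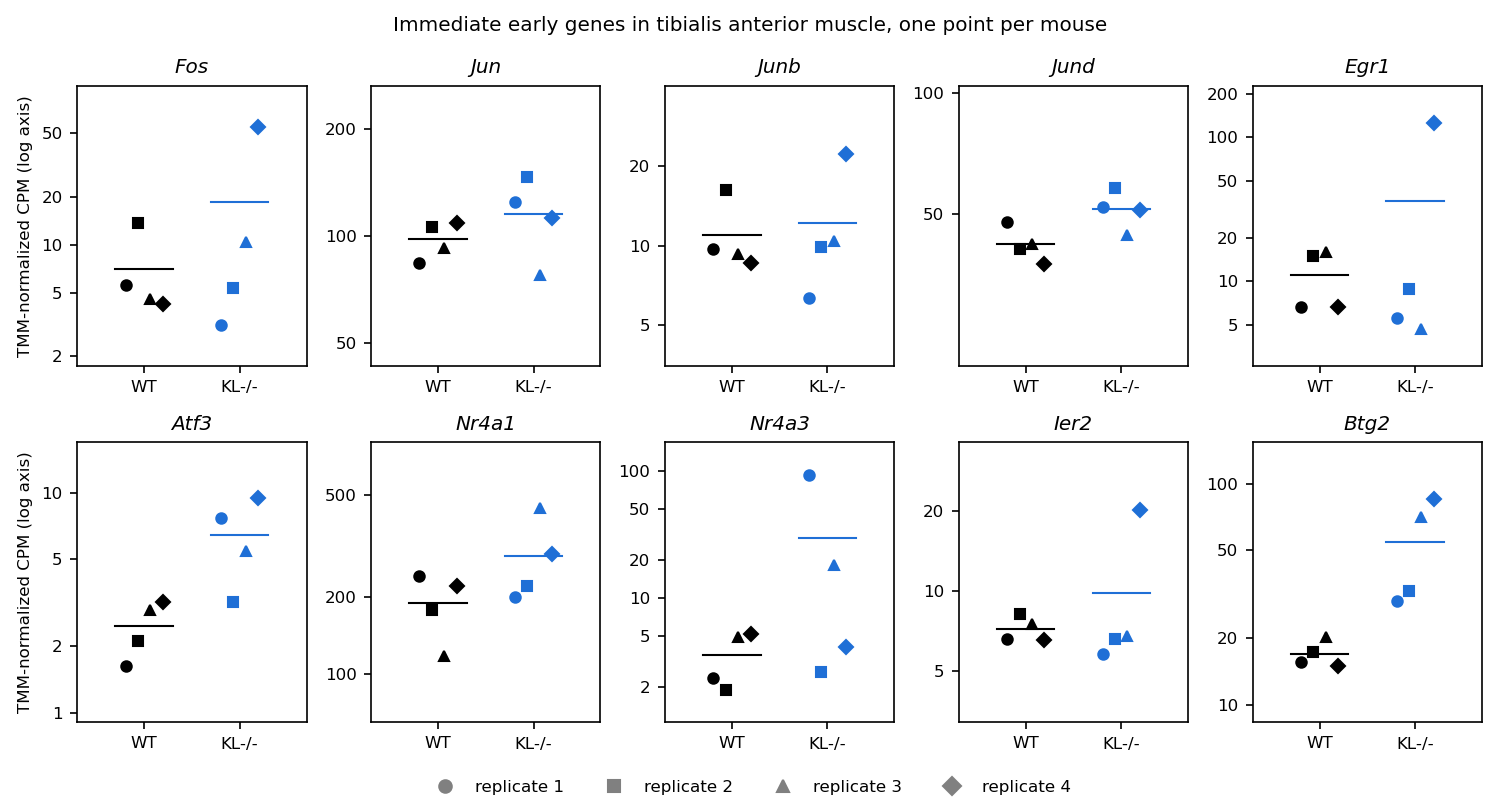
TMM-normalized CPM (vertical log axis, its own range for each gene) of the 10 members in 4 WT (black) and 4 KL-/- (blue) muscles, 1 point per mouse, with the marker shape giving the replicate number and horizontal lines the arithmetic means. Btg2 and Atf3 are higher in every KL-/- muscle than in every WT muscle, whereas Fos, Egr1 and Ier2 are raised above all other muscles in KL-/- replicate 4 alone.

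The genotype comparison asked whether these genes differ in TA muscles that lack Klotho. All 12551 genes were fitted together with edgeR's quasi-likelihood test, with Benjamini-Hochberg adjustment over all of them and a threshold of 0.05 on the adjusted p, the false discovery rate (FDR). Btg2 and Atf3 were higher in KL-/- muscles, 2 of 10 members, and no member was lower. Over all genes 7.35% were higher and 6.67% lower by the same rule. The log2 fold change was above 0 for 10 of 10 members, beside 47.6% of all genes, and its median was 1.00 for the members and -0.02 for all genes. That share of the members rests on 1 mouse, since 6 of 10 were above 0 when KL-/- replicate 4 was left out. The members were also chosen with earlier results of these data known, so the shares do not test whether they differ from all genes.

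Btg2 (chr1:134074865-134079155, minus strand) had the lowest FDR of the members. Its levels were 15.6, 17.3, 20.2 and 15.1 CPM in WT replicates 1 to 4 and 29.5, 32.8, 71.1 and 85.7 CPM in KL-/- replicates 1 to 4. The lowest KL-/- muscle was above the highest WT muscle, and KL-/- replicates 3 and 4 were above KL-/- replicates 1 and 2. The log2 fold change was 1.69 ± 0.33 (SE), or 3.22-fold, with an FDR of 0.0125 by edgeR's quasi-likelihood test. It passed in 8 of 8 fits that left out 1 mouse, at log2 fold changes between 1.39 and 1.90.

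Atf3 (chr1:191170297-191183333, minus strand), a stress-induced transcription factor, was measured at 1.63, 2.13, 2.94 and 3.19 CPM in WT and at 7.67, 3.20, 5.43 and 9.42 CPM in KL-/- muscles. The groups did not overlap, but KL-/- replicate 2 exceeded WT replicate 4 by only the last digit shown, on 67 and 89 counts. The log2 fold change was 1.38 ± 0.33 (SE), or 2.60-fold, with an FDR of 0.0257 by edgeR's quasi-likelihood test. Atf3 passed in 3 of 8 fits that left out 1 mouse. Without WT replicate 1, 2 or 3 or KL-/- replicate 1 or 4 its FDR lay between 0.0570 and 0.0703, at log2 fold changes of 1.14 to 1.47. Separation of all 4 KL-/- from all 4 WT values in the higher direction was met by 2 of 10 members, Btg2 and Atf3, and by 10.2% of all genes.

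Of the nuclear receptors, Nr4a3 had the largest SD within genotypes of all 10 members. Nr4a3 (chr4:48045305-48086446, plus strand) was at 2.33, 1.90, 4.88 and 5.20 CPM in WT muscles and at 93.8, 2.62, 18.2 and 4.11 CPM in KL-/- muscles. KL-/- replicates 1 and 3 stood above all WT muscles, and KL-/- replicates 2 and 4 lay inside the WT range. The highest KL-/- value was 35.8 times the lowest, and the log2 fold change of 3.04 ± 1.03 (SE) had an FDR of 0.0753 by edgeR's quasi-likelihood test. Without KL-/- replicate 1 it was 1.21, and without KL-/- replicate 2 it was 3.42 and passed at an FDR of 0.0293. Nr4a1 (chr15:101266846-101274794, plus strand) was at 240, 177, 117 and 221 CPM in WT and at 199.9, 220, 445 and 293 CPM in KL-/- muscles. KL-/- replicates 3 and 4 were above all WT muscles, and the log2 fold change was 0.61 ± 0.28 (SE, FDR = 0.161, edgeR). The mouse with the most Nr4a3 RNA, KL-/- replicate 1, had the least Nr4a1 RNA of its genotype.

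The highest levels of Fos and Egr1 came from a single muscle. Fos (chr12:85473901-85477270, plus strand) was at 5.59, 13.7, 4.58 and 4.23 CPM in WT and at 3.14, 5.39, 10.4 and 55.1 CPM in KL-/- muscles, the last on 1463 counts. The last muscle, KL-/- replicate 4, was 5.28 times the next KL-/- muscle, whereas KL-/- replicate 1 lay below every WT muscle and KL-/- replicates 2 and 3 lay inside the WT range. Egr1 was at 6.70, 15.1, 16.1 and 6.67 CPM in WT and at 5.58, 8.92, 4.68 and 126 CPM in KL-/- muscles. Again KL-/- replicate 4 stood apart, at 14.2 times the next KL-/- muscle, whereas KL-/- replicates 1 and 3 lay below every WT muscle. The log2 fold changes were 1.42 ± 0.82 (SE) for Fos, with an FDR of 0.261, and 1.71 ± 1.01 (SE) for Egr1, with an FDR of 0.266, by edgeR's quasi-likelihood test. Without KL-/- replicate 4 they turned to -0.14 and -0.81, with FDRs of 0.879 and 0.222. For Egr1 the medians had the opposite order to the means, 10.9 CPM for WT and 7.25 CPM for KL-/- muscles.

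Ier2 and Junb showed the same mouse at lower amplitude. Ier2 (chr8:84661331-84662852, minus strand) was at 6.61, 8.19, 7.51 and 6.53 CPM in WT and at 5.79, 6.58, 6.76 and 20.1 CPM in KL-/- muscles. KL-/- replicate 4 was 2.97 times the next KL-/- muscle, and the other 3 KL-/- values were within or below the WT range. Junb (chr8:84976909-84978748, minus strand) was at 9.72, 16.1, 9.30 and 8.61 CPM in WT and at 6.35, 9.88, 10.4 and 22.2 CPM in KL-/- muscles. The highest was again KL-/- replicate 4, at 2.13 times the next. The log2 fold changes were 0.45 ± 0.37 (SE) for Ier2 (FDR = 0.432, edgeR) and 0.17 ± 0.36 (SE) for Junb (FDR = 0.779, edgeR), and without KL-/- replicate 4 they were -0.18 and -0.30.

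Jun and Jund, whose proteins are present in many resting cells, varied least of the members within genotypes. Jun (chr4:95049036-95052222, minus strand) was at 84.2, 106, 92.6 and 109 CPM in WT and at 125, 146, 77.9 and 112 CPM in KL-/- muscles. KL-/- replicate 3 was below all WT muscles and the other 3 KL-/- muscles were above them, with a log2 fold change of 0.24 ± 0.17 (SE, FDR = 0.359, edgeR). Jund (chr8:70697739-70700616, plus strand) was at 47.7, 40.7, 42.0 and 37.5 CPM in WT and at 52.0, 58.0, 44.3 and 51.0 CPM in KL-/- muscles. Only KL-/- replicate 3 overlapped the WT values, and the log2 fold change was 0.29 ± 0.10 (SE) with an FDR of 0.0736 by edgeR's quasi-likelihood test. The 95% interval of that difference, for Jund alone, ran from 0.07 to 0.51 on the log2 scale, and that of Jun from -0.14 to 0.61.

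**Figure D2:**
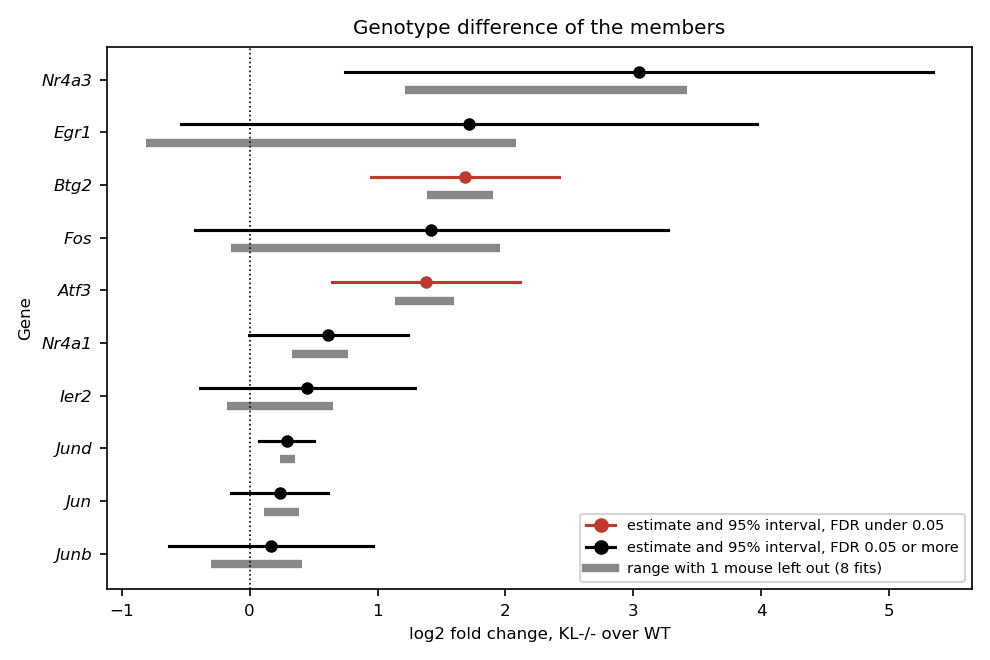
Log2 fold change (horizontal axis, KL-/- over WT) of each member with its 95% interval from edgeR, unadjusted for the number of genes, in red for FDR under 0.05, and below it in grey the range of the estimate over 8 fits that each left out 1 mouse. The grey ranges of Fos, Egr1, Ier2 and Junb cross 0, while those of Btg2 (1.39 to 1.90) and Atf3 (1.14 to 1.60) stay well above it.

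**Figure D3:**
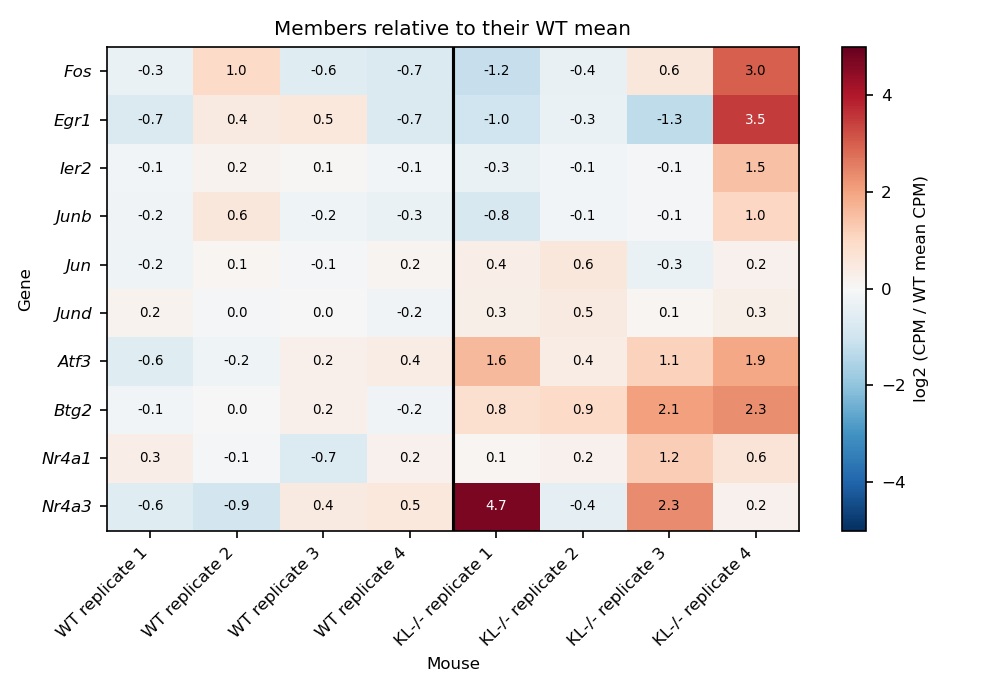
Log2 ratio of each muscle's CPM to the arithmetic mean of the 4 WT muscles, for the 10 members (rows) in the 8 mice (columns), with red for higher and blue for lower values. In KL-/- replicate 4 the ratio is high for Fos and Egr1, and in KL-/- replicate 1 for Nr4a3. For Btg2, Atf3, Nr4a1 and Jund it is positive in all 4 KL-/- muscles, though Nr4a1 and Jund overlap the WT values.

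Several members were thus high in single KL-/- mice. Within KL-/-, replicate 4 was the highest muscle for Fos, Junb, Egr1, Atf3, Ier2 and Btg2, 6 of 10 members, and the lowest for 0. Replicate 2 was the highest for Jun and Jund, replicate 3 for Nr4a1 and replicate 1 for Nr4a3. Averaged over the 10 members after scaling each to its spread within genotypes, the log2 deviation from the genotype mean was 0.939 in KL-/- replicate 4 and between -0.387 and -0.217 in the other KL-/- muscles. Among WT muscles it ran from -0.0943 to 0.189, and WT replicate 2, with the highest value, had the most Fos, Junb and Ier2 RNA of its genotype. KL-/- replicate 4 shares its batch date with all WT libraries.

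The members varied more among KL-/- than among WT mice, which is given here as a description without a test. The SD of log2 CPM was larger among KL-/- than among WT mice for 10 of 10 members, beside 57.1% of all genes, and it was over 2 times the WT value for 6 of 10 members, beside 19.2% of all genes. The median ratio of the KL-/- to the WT SD was 2.27 for the members and 1.12 for all genes. Ier2 had the largest ratio among the members, 5.37, from an SD of 0.15 in WT and 0.83 in KL-/- on the log2 scale. Btg2 followed at 4.11, with SDs of 0.189 and 0.776, whereas Jund and Nr4a1 were near equal at 1.11 and 1.12. Nr4a3 and Egr1 had the largest SDs in KL-/-, at 2.32 and 2.21, and were already variable in WT, at 0.721 and 0.702. Pooled over both genotypes the SD within genotypes was above the 90th percentile of all genes for 8 of 10 members, all but Jun and Jund, where the percentile fixes the share over all genes at 10%. That SD was above 77.4% of all genes for Jun and above 47.0% for Jund. Among genes of like average level (within 0.5 log2 CPM) the shares were 93.9% and 74.8%, so Jun was variable for its level. With 4 mice per genotype an SD is imprecise, and 1 mouse decides several of these values.

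**Figure D4:**
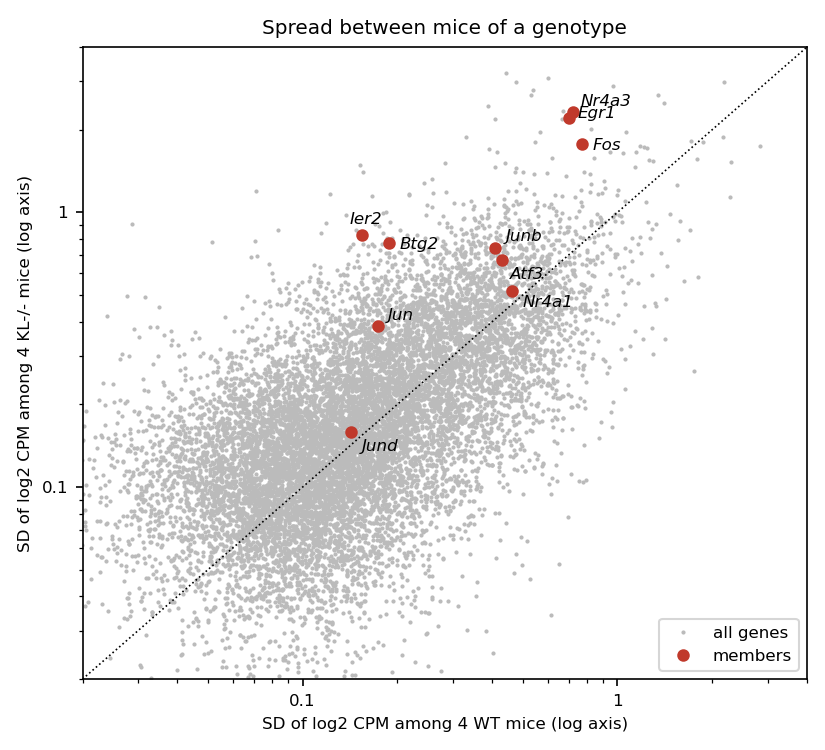
SD of log2 CPM among the 4 KL-/- mice (vertical log axis) against that among the 4 WT mice (horizontal log axis) for all genes (grey) and the 10 members (red), with a dotted line of equality. All 10 members lie above the line, with Nr4a3, Egr1 and Fos at the upper edge and Jund close to the line. Some grey points lie outside the plotted range.

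The genes that varied most like the members were sought among 11035 other genes, by Pearson r over 8 samples with the mean scaled deviation of the members, after subtraction of the genotype means. The first 5 were Dnajc7 (r = 0.962), a cochaperone, then Tcaim (0.952), Zfand2b (0.952), Polr3f (0.950) and Serhl (0.946). Among KL-/- muscles these genes were highest in the same mouse as the members, replicate 4, but moved over a narrow range. Among WT muscles the members' mean deviation was highest in replicate 2, as were Tcaim and Polr3f. Dnajc7 and Serhl were instead highest in WT replicate 4, and Zfand2b in WT replicate 3. Dnajc7 was at 104 to 108 CPM in WT, at 112 to 120 CPM in KL-/- replicates 1 to 3 and at 141 CPM in KL-/- replicate 4. The 8 points of each r thus include 1 mouse far from the others.

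Other immediate early genes were read from a list of 52 symbols, 46 of which were in the table. Of these 46 genes 13 were higher in KL-/- muscles (FDR under 0.05, edgeR), 2 were lower, and 35 had a log2 fold change above 0, beside 7.35%, 6.67% and 47.6% of all genes. The median log2 fold change was 0.59. The list was chosen with earlier results of these data known, so these counts do not test whether such genes differ from all genes. Scaling by library totals without TMM factors gave 10 higher and 7 lower. With 1 mouse left out the count of higher genes was 5, 3, 2 and 5 without WT replicates 1 to 4 and 14, 20, 4 and 2 without KL-/- replicates 1 to 4. Ier5 and Cebpb passed in 8 of 8 fits that left out 1 mouse.

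Ier5, a regulator of heat shock factor activity, was at 11.4, 11.4, 10.7 and 12.9 CPM in WT and at 18.5, 17.7, 17.9 and 16.1 CPM in KL-/- muscles, a log2 fold change of 0.59 ± 0.09 (SE, FDR = 0.00485, edgeR). The groups were tight and did not overlap, unlike those of its relative Ier2. Cebpb, a leucine zipper transcription factor, was at 25.0 to 39.7 CPM in WT and at 48.5 to 84.2 CPM in KL-/- muscles (log2 fold change 0.98 ± 0.19, SE, FDR = 0.0127, edgeR). Both are named here because they passed in every such fit, a choice made after their values were seen.

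Among genes of that list past the threshold, the largest changes were those of Gadd45g, Csrnp1, Sik1, Nfil3, Myc and Tnfaip3. Gadd45g, Csrnp1, Sik1 and Nfil3 were each highest in KL-/- replicate 3, the only library with its batch date. Gadd45g, a growth arrest and stress gene, was at 21.8, 12.0, 6.63 and 13.6 CPM in WT and at 21.5, 25.5, 70.2 and 64.3 CPM in KL-/- muscles (log2 fold change 1.75 ± 0.45, SE, FDR = 0.0329, edgeR). KL-/- replicates 3 and 4 stood above the rest, and KL-/- replicate 1 overlapped WT. Csrnp1, a nuclear transcription regulator, was at 1.79 to 3.62 CPM in WT and at 3.91, 4.63, 16.8 and 11.2 CPM in KL-/- muscles, with the same 2 mice highest (log2 fold change 1.73 ± 0.47, SE, FDR = 0.0388, edgeR). Sik1, a CREB-induced kinase that restrains CREB coactivators, was at 8.36 to 10.8 CPM in WT and at 15.6, 16.9, 60.0 and 28.1 CPM in KL-/- muscles without overlap (log2 fold change 1.65 ± 0.40, SE, FDR = 0.0264, edgeR).

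Nfil3, a leucine zipper repressor, was at 8.09 to 13.5 CPM in WT and at 26.4, 11.9, 47.1 and 18.9 CPM in KL-/- muscles, where replicate 2 lay inside the WT range (log2 fold change 1.27 ± 0.36, SE, FDR = 0.0471, edgeR). Myc, a growth-promoting transcription factor, was at 2.22 to 3.13 CPM in WT and at 4.57, 11.5, 3.81 and 5.13 CPM in KL-/- muscles, highest in replicate 2 (log2 fold change 1.21 ± 0.34, SE, FDR = 0.0435, edgeR). Tnfaip3, an inhibitor of NF-kappaB signalling, went the other way, at 7.10 to 9.26 CPM in WT and 2.53 to 6.25 CPM in KL-/- muscles (log2 fold change -0.999 ± 0.23, SE, FDR = 0.0238, edgeR). The most abundant genes of the list in summed CPM were Tob1, a relative of Btg2, and Bhlhe40, a basic helix-loop-helix repressor. Tob1 was lower, at 273 to 313 CPM in WT and 220 to 261 CPM in KL-/- muscles (log2 fold change -0.30 ± 0.07, SE, FDR = 0.0278, edgeR), whereas Btg2 was higher. Bhlhe40 had a log2 fold change of -0.15 ± 0.09 (SE, FDR = 0.284, edgeR). Each of the 8 genes named by the rule passed in 3 or fewer of the 8 fits that left out 1 mouse.

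**Figure D5:**
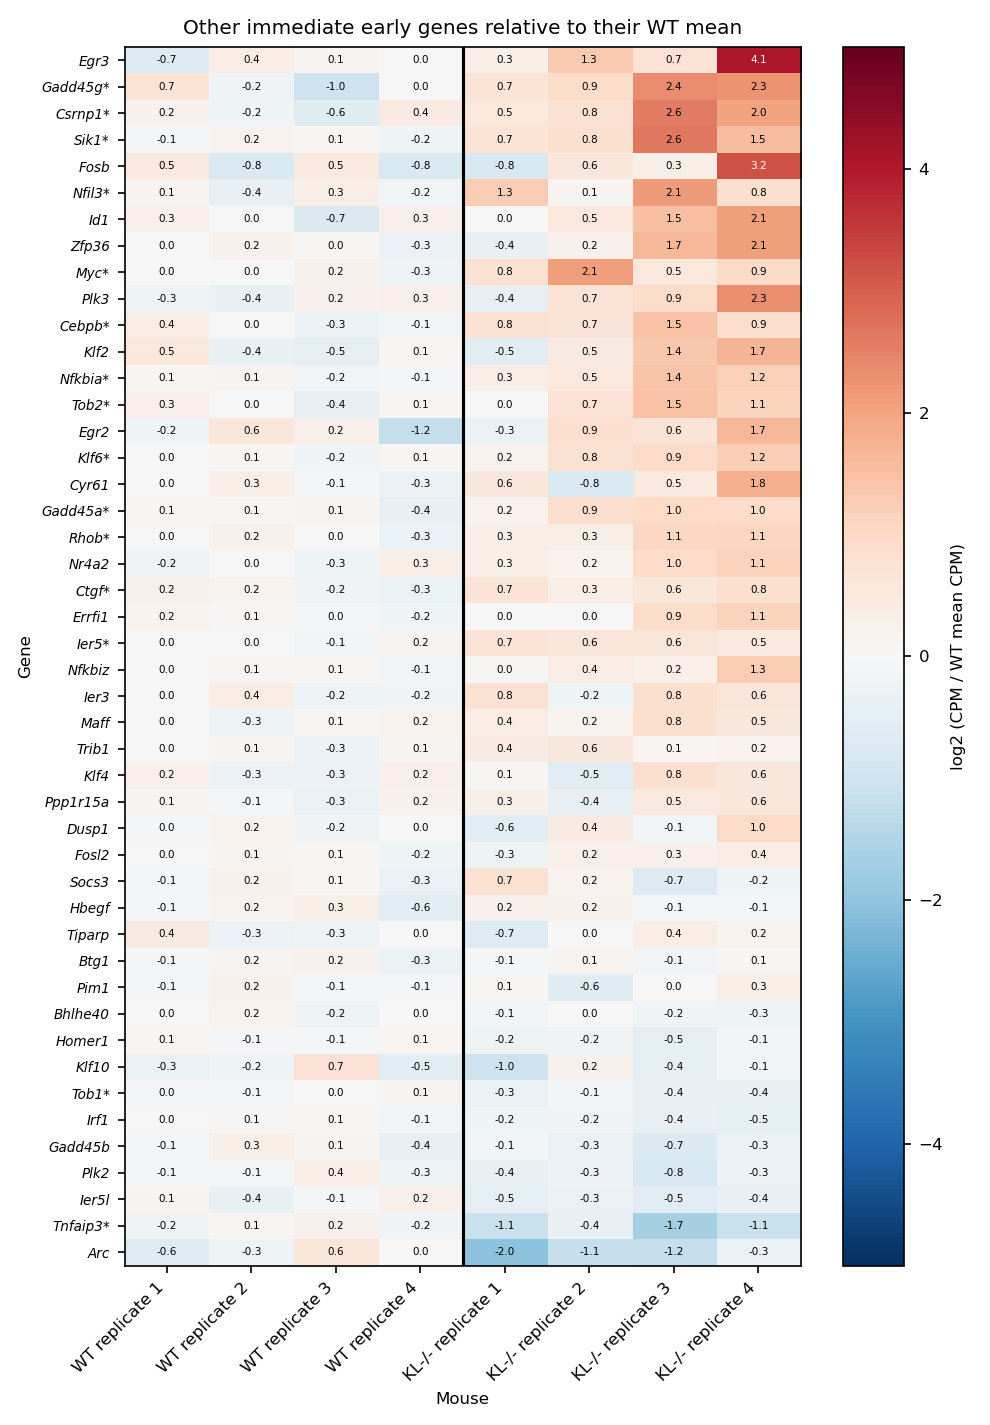
Log2 ratio of each muscle's CPM to the arithmetic mean of the 4 WT muscles for the 46 other immediate early genes (rows, ordered by log2 fold change) in the 8 mice (columns), with an asterisk for FDR under 0.05 in edgeR. The upper rows are mostly highest in KL-/- replicates 3 and 4, which hold the highest KL-/- value of 12 and 20 of the 46 genes.

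Among these 46 genes the highest KL-/- muscle was replicate 4 for 20 genes, replicate 3 for 12, replicate 2 for 11 and replicate 1 for 3. Of the closest relatives of the members, named after their values were seen, Fosb and Egr3 were far higher in KL-/- replicate 4 than in the other muscles. Fosb was at 0.323 to 0.776 CPM in WT, at 0.314 to 0.811 CPM in KL-/- replicates 1 to 3 and at 5.01 CPM in KL-/- replicate 4. Egr3 was at 0.531 to 1.11 CPM in WT, at 1.05 to 2.15 CPM in KL-/- replicates 1 to 3 and at 14.4 CPM in KL-/- replicate 4. Neither passed, at log2 fold changes of 1.65 ± 0.87 (SE, FDR = 0.219, edgeR) for Fosb and 2.47 ± 0.89 (SE, FDR = 0.0918, edgeR) for Egr3. Zfp36, which destabilizes immediate early mRNAs, was at 7.46 to 10.8 CPM in WT and at 7.11, 10.5, 29.0 and 39.6 CPM in KL-/- muscles (log2 fold change 1.23 ± 0.47, SE, FDR = 0.106, edgeR). Nr4a2, the remaining receptor of its family, was at 1.11 to 1.65 CPM in WT and at 1.48 to 2.90 CPM in KL-/- muscles (FDR = 0.0982, edgeR), and did not share the high value of Nr4a3 in KL-/- replicate 1, where it was at 1.64 CPM. Egr2 was also highest in KL-/- replicate 4, at 2.34 CPM, beside 0.593 to 1.34 CPM in KL-/- replicates 1 to 3. In WT it was at 0.323 to 1.11 CPM (log2 fold change 0.90 ± 0.46, SE, FDR = 0.211, edgeR), and without KL-/- replicate 4 its log2 fold change was 0.47. The relatives Fosl2, Btg1, Ier5 and Ier5l did not stand out in KL-/- replicate 4, nor did Ier3, which is like Ier2 in symbol only. Fosl2, of the Fos family, was at 23.0 CPM there and at 21.2 CPM in the next KL-/- muscle. Btg1, a paralog of Btg2, was highest in KL-/- replicate 2 (20.8 CPM, beside 19.8 CPM in replicate 4), as was Ier5l (2.62 and 2.53 CPM). Ier3 was highest in KL-/- replicate 3 (10.7 CPM, beside 9.31 CPM in replicate 4), and Ier5 was lowest of its genotype in replicate 4.

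Genes that act upstream of the members were read from lists of their own, whose counts stand beside 7.35% higher and 6.67% lower over all genes and a count near those shares sets no list apart. Of 37 upstream kinases and calcineurin subunits, 2 were higher and 2 lower, with a median log2 fold change of 0.07, while scaling by library totals without TMM factors gave 1 higher and 8 lower. Ppp3ca, a catalytic subunit of calcineurin, was higher at 257 ± 17.6 CPM (SD) in WT and 342 ± 12.6 CPM in KL-/- muscles (log2 fold change 0.41 ± 0.06, SE, FDR = 0.00623, edgeR). The other catalytic subunits, Ppp3cb (0.22, FDR = 0.117, edgeR) and Ppp3cc (0.24, FDR = 0.0935, edgeR), did not pass. Neither did the regulatory subunit Ppp3r1 (-0.008, FDR = 0.947, edgeR). Camk2b, a calcium-dependent kinase subunit, was also higher (log2 fold change 0.28, FDR = 0.0432, edgeR), while its paralog Camk2d (-0.41, FDR = 0.0417, edgeR) and the stress kinase Mapk14 or p38 alpha (-0.38, FDR = 0.0211, edgeR) were lower. The most abundant genes of this list, Camk2a and Mapkapk2, had log2 fold changes of -0.26 (FDR = 0.131, edgeR) and 0.18 (FDR = 0.283, edgeR). With 1 mouse left out, 1 to 6 genes of the list were higher and 0 to 4 lower, the most without KL-/- replicate 2.

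Of 17 SRF and CREB factors and their cofactors, 0 were higher and 2 were lower (0 and 4 with library totals), with a median log2 fold change of -0.05. The lower ones were coactivators. Mkl1, which carries actin signals to SRF, was at 56.5 to 71.5 CPM in WT and 28.3 to 50.4 CPM in KL-/- muscles (log2 fold change -0.70 ± 0.18, SE, FDR = 0.0310, edgeR). Crtc1, a CREB coactivator, was at 17.7 ± 1.84 CPM (SD) in WT and 14.2 ± 0.375 CPM in KL-/- muscles (log2 fold change -0.31 ± 0.09, SE, FDR = 0.0421, edgeR). Mef2c and Mef2d, the most abundant of the list, had log2 fold changes of 0.07 and 0.10 and did not pass (FDR = 0.550 and 0.376, edgeR). With 1 mouse left out, 0 to 2 genes of the list were lower, and 0 without WT replicate 2 or 3 or KL-/- replicate 1 or 3. In the fit without KL-/- replicate 2, 1 gene of the list was higher.

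Of 24 genes that limit the response, 2 were higher and 3 lower (2 and 6 with library totals), with a median log2 fold change of -0.06. Sik1, described above, and the ERK phosphatase Dusp7 (log2 fold change 0.71, FDR = 0.0368, edgeR) were higher. The phosphatase Dusp3 (-0.39, FDR = 0.0231, edgeR), the mRNA-destabilizing Zfp36l2 (-0.50, FDR = 0.0300, edgeR) and the ERK pathway inhibitor Spred1 (-0.49, FDR = 0.0497, edgeR) were lower. Dusp3 was also among the most abundant of the list, with Dusp26 (0.49, FDR = 0.0643, edgeR). Of the 24 genes 0 passed in either direction without WT replicate 2 or 3 or KL-/- replicate 4, and 4 passed in each direction without KL-/- replicate 2.

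Of 14 partners of AP-1 proteins 1 was higher and 0 lower (0 and 0 with library totals), with a median log2 fold change of 0.14. It was Mafk, a small Maf protein, at 25.3 to 32.7 CPM in WT and 29.2 to 50.4 CPM in KL-/- muscles (log2 fold change 0.61, FDR = 0.0351, edgeR). The most abundant of that list, Maf and Atf4, had log2 fold changes of -0.10 (FDR = 0.610, edgeR) and 0.21 (FDR = 0.329, edgeR). The list had 0 calls in 6 of the 8 fits that left out 1 mouse, all but those without WT replicate 4 or KL-/- replicate 2. Of 20 genes known to respond to contraction or stretch, 1 was higher, again Sik1, and 0 were lower (0 higher with limma-voom, 5 with the likelihood ratio test), with a median of 0.45 and a wide median SD within genotypes of 0.599. Pdk4, an inhibitory kinase of pyruvate dehydrogenase and the most abundant with Hk2, was at 319 to 1131 CPM in WT and at 227, 1487, 370 and 335 CPM in KL-/- muscles, so its high mouse was not that of Fos and Egr1. Hk2 had a log2 fold change of 0.23 (FDR = 0.462, edgeR). With 1 mouse left out 0 to 4 genes were higher, and 0 without WT replicate 1, 2 or 3 or KL-/- replicate 4. In the fits without KL-/- replicate 1 and without KL-/- replicate 2, 1 gene was lower.

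Of 12 heat shock genes 0 were higher and 2 lower, beside 7.35% and 6.67% of all genes, with a median log2 fold change of -0.06. Scaling by library totals alone gave 0 higher and 5 lower. Hsph1, a chaperone cofactor, was at 66.0 to 91.6 CPM in WT and 36.1 to 46.7 CPM in KL-/- muscles (log2 fold change -0.85 ± 0.12, SE, FDR = 0.00398, edgeR), and was lowest in KL-/- replicate 4. Hsp90aa1 was lower as well (-0.39, FDR = 0.0321, edgeR). Hspa8 and Hspd1, the most abundant of the list, had log2 fold changes of -0.17 (FDR = 0.108, edgeR) and 0.09 (FDR = 0.372, edgeR). With 1 mouse left out, 1 to 3 genes of this list were lower and 0 higher.

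Some markers of other cells differed between genotypes and were measured beside the members, many of which are expressed in most cell types. Over all genes 7.35% were higher and 6.67% lower by the same rule. Summed over 10 fibro-adipogenic progenitor markers the level was 1459 to 4407 CPM in WT and 778 to 1985 CPM in KL-/- muscles, with overlap. Of these genes 4 of 10 were lower. Col1a1, Col1a2 and Col3a1, which make up much of the sum, did not pass (FDR = 0.145, 0.117 and 0.126, edgeR). Over 12 macrophage and leukocyte markers the sum was 70.9 to 149 CPM in WT and 48.2 to 85.2 CPM in KL-/- muscles, also with overlap, and 4 of 12 were lower. Over 7 Schwann cell markers the sum was 57.8 to 103 CPM in WT and 107 to 132 CPM in KL-/- muscles, without overlap, and 4 of 7 were higher. In bulk muscle RNA fewer cells of a type and less RNA per cell cannot be told apart. KL-/- replicates 3 and 4, the highest for Btg2, had the lowest sums of the progenitor markers (778 and 999.8 CPM) and of the leukocyte markers (48.2 and 49.0 CPM) of their genotype, and KL-/- replicate 1, the highest for Nr4a3, had 1699 and 85.2 CPM.

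Endothelial markers summed to 551 to 828 CPM in WT and 522 to 574 CPM in KL-/- muscles, and 1 of 10 genes was lower. Sums of pericyte and smooth muscle markers (366 to 562 and 415 to 520 CPM), satellite cell markers (54.1 to 64.2 and 58.3 to 63.4 CPM) and blood cell markers (3.47 to 9.72 and 3.91 to 9.84 CPM, from 2 genes) overlapped between WT and KL-/- muscles. Adipocyte markers, from 4 genes, were at 184 to 215 CPM in WT and 215 to 290 CPM in KL-/- muscles. Most of that sum was Fabp4, at 187 ± 8.77 CPM (SD) in WT and 225 ± 17.0 CPM in KL-/- muscles. It was the only gene of the 4 to pass (log2 fold change 0.27, FDR = 0.0300, edgeR). Adipoq, Cfd and Cidec overlapped between genotypes (FDR = 0.218, 0.258 and 0.181, edgeR). No marker counted here was at 0 in a library. KL-/- replicate 4, in which Fos and Egr1 were highest, had sums of endothelial (574 CPM) and blood cell markers (9.84 CPM) that were the highest of its genotype, and the part of any of these cells in the members' values was not tested.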

How the data were processed

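RNA from TA muscles of 4 WT and 4 KL-/- mice was sequenced. Per the study's methods, the authors checked reads with FastQC, mapped them to mm10 with STAR, dropped poorly mapped reads and tallied the rest on genes with featureCounts. The deposited values are raw counts, already limited to 12551 expressed genes. The annotation and strand setting are not given in the sources used here. The labels name total RNA, the methods mRNA. Groups and replicate numbers come from the labels, which name separate mice.

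The genotypes were compared with edgeR 4.0.16 in R 4.3.3 (TMM factors, genotype only, quasi-likelihood test in its edgeR 4 form, Benjamini-Hochberg adjustment over all genes, FDR under 0.05). Log2 CPM used a prior count of 2. The floor of 3 counts was 0.102 to 0.144 CPM, for counting error only. Promoters came from RefSeq (GRCm38.p6), and overlapping genes from GENCODE. Scripts were tested on simulated data. No pair of libraries looked like 1 library deposited under both names.

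Named were all members, of each pathway list the genes past the threshold (at most the 6 with the largest changes) and the 2 most abundant, and the 5 genes most like the members. Members and lists were chosen with earlier results of these data known. Alternatives were RLE factors, library totals, the likelihood ratio test, limma-voom (limma 3.58.1), DESeq2 1.42.0, a minimum of 10 counts in every sample, no filter, the replicate number as a block, the edgeR 3 form of the test and each mouse left out.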

Additional observations from a re-analysis of the deposited data

Results flagged for a closer look

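A single mouse was set apart where its gap to the nearest of the other 3 mice of its genotype took up more of the genotype's range in CPM than Dixon's 95% limit for 4 samples. Of 98 groups of 4 examined, for the members and the genes named beside them, 11 had such a mouse, 5 of them KL-/- replicate 4. Chance flags about 1 in 20 groups when values are normally distributed, which does not hold for CPM, and all 11 were on the high side. Some of the genes were also chosen after their values were seen. On log2 of CPM, a scale added after seeing the data, only 2 of the 11 stayed past the limit, Ier2 in KL-/- replicate 4 and Camk2b in WT replicate 4, so the others are given as values only.

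Among the members, KL-/- replicate 4 was set apart for Fos at 55.1 CPM (the other 3 KL-/- mice at 3.14 to 10.4), for Egr1 at 126 CPM (4.68 to 8.92) and for Ier2 at 20.1 CPM (5.79 to 6.76). KL-/- replicate 1 was set apart for Nr4a3 at 93.8 CPM, just past the limit with 0.830 of the range. In WT, replicate 2 was set apart for Fos at 13.7 CPM (4.23 to 5.59) and for Junb at 16.1 CPM (8.61 to 9.72).

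Outside the members, KL-/- replicate 4 was set apart for Fosb at 5.01 CPM and for Egr3 at 14.4 CPM, both named after their values were seen. KL-/- replicate 2 was set apart for Pdk4 at 1487 CPM (227 to 370 in the other KL-/- mice) and, at the limit, for Myc at 11.5 CPM (3.81 to 5.13). WT replicate 4 was set apart for Camk2b at 228 CPM (182 to 188).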

How the results depend on the processing

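Btg2 and Atf3 passed under all 9 alternatives that kept all mice. Among these, the fit with no filter repeated the main fit, because the filter removed none of the 12551 genes. DESeq2 called 4 members in place of 2, adding Jund and Nr4a3 (Egr1 had no adjusted p there), and the likelihood ratio test added Nr4a3. No member changed direction in these 9, but limma-voom and the replicate block lowered the log2 fold changes of Egr1 (1.71 to 0.41 and 0.18), Fos (1.42 to 0.74 and 0.69), Nr4a3 (3.04 to 1.92 and 1.91), Ier2 (0.45 to 0.26 and 0.27) and Junb (0.17 to 0.07 and 0.06), and library totals those of Jun (0.24 to 0.12), Jund (0.29 to 0.17) and Junb (to 0.05). With each mouse left out, 1 to 3 members passed, and 4 changed direction without KL-/- replicate 4, with ranges of -0.14 to 1.96 for Fos, -0.81 to 2.08 for Egr1, -0.30 to 0.41 for Junb and -0.18 to 0.65 for Ier2. Library totals in place of TMM factors shifted the genome-wide median log2 fold change to -0.13, from -0.02, took the higher share of all calls from 52.4% to 18.8%, and left 1 member without overlap, Btg2, in place of 2. That count was 2 to 4 with each mouse left out, and 4 without KL-/- replicate 3 with Jun and Jund added. Genes past the threshold in the whole table numbered 1759, and 762 to 2755 with each mouse left out (lowest without KL-/- replicate 3, highest without KL-/- replicate 2). Higher genes among the 46 other immediate early genes, an outcome added after seeing the data, numbered 13, 8 with limma-voom and 2 to 20 with each mouse left out. With library totals 10 were higher and 7 lower, in place of 13 and 2.

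Mice with the same replicate number did not deviate together, with correlations between -0.368 and 0.181, so the numbers were not taken as pairs. With the number as a replicate block 671 genes passed in the whole table, 5 of the other immediate early genes were higher, and the members that passed were Btg2 and Atf3.

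With 4 mice per genotype and values of 1 mouse this far from the rest, the intervals of Fos, Egr1 and Nr4a3 are wide. The muscles were sampled once, so the time course of these transcripts is not seen.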
